A study of Mus musculus with 10 samples.

Results

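The genes described here make and remove extracellular adenosine and receive its signal: the ectonucleotidases Entpd1, Enpp1 and Nt5e, the adenosine receptors Adora2a, Adora2b and Adora3, the enzymes Ada and Adk, and the transporter Slc29a1. They were taken by symbol from the deposited table of read counts, where all 9 were found among 35725 gene rows. The 10 RNA-seq libraries were made from eosinophils sorted from the lungs of male mice, 5 from P2ry14-null mice and 5 from C57BL/6J wild-type mice (WT). P2ry14 encodes a receptor for UDP-sugars, and the sources used here give neither the making of the null allele nor the age of the mice. Mice of both genotypes went through the same model of allergic asthma: 2 sensitizations through the oropharynx with ovalbumin (50 µg) together with protease of Aspergillus oryzae (20 µg), then, 7 days on, a challenge with 1% ovalbumin as an aerosol. Cells were sorted 16 h after the challenge. The question for these genes was whether the adenosine pathway of lung eosinophils differs in mice without P2ry14. No library analysed here came from a mouse without the ovalbumin challenge, so the levels describe challenged lungs.

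Cells under stress release ATP, and enzymes on the cell surface cut it down. CD39, the product of Entpd1, removes phosphates from ATP and ADP to give AMP, ENPP1 cuts ATP to AMP and pyrophosphate, and CD73, the product of Nt5e, turns AMP into adenosine. Adenosine acts on G protein-coupled receptors: those of Adora2a and Adora2b couple to Gs and raise cyclic AMP, and those of Adora1 and Adora3 couple to Gi and lower it. Uptake through the equilibrative transporter of Slc29a1, phosphorylation to AMP by adenosine kinase (Adk) and conversion to inosine by adenosine deaminase (Ada) remove adenosine. In asthma the pathway is known for adenosine in the airway lining fluid and for airway inflammation in mice that lack Ada.

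Total counts ran from 67.2 to 185 M reads per library (M, 1e+06). Levels are given as counts per 1e+06 reads (CPM) on scaled library sizes. By counting error alone, about 3 reads is the upper 95% bound for an observed 0. On total counts, 3 reads equal 0.0162 to 0.0447 CPM. P2ry14 itself had 211 ± 16.0 CPM in WT and 23.2 ± 1.02 CPM in P2ry14-null libraries (SD, n = 5 each), a log2 fold change of -3.19 ± 0.06 (SE; edgeR adjusted p = 3.74e-12). The 14 eosinophil markers summed to between 13474 and 14331 CPM in every library. One library stood apart in markers of other cells. P2ry14-null library 2 held 3153 CPM of 14 macrophage markers against 1654 to 2078 CPM in the other 9 libraries, 428 CPM of 10 dendritic cell and MHC class II markers against 77.1 to 146 CPM, and 107 CPM of 11 lung epithelial markers against 34.5 to 60.5 CPM. Lymphocyte lists were highest there too: 56.5 CPM of B cell and plasma cell markers against 17.2 to 34.3 CPM, and 11.7 CPM of natural killer and innate lymphoid markers against 4.31 to 8.04 CPM. T cell markers, each with a mean under 1 CPM, summed to 8.93 CPM there against 3.83 to 5.25 CPM. The mast cell and basophil list, 11 genes of which 8 were under 1 CPM, summed to 69.3 to 90.6 CPM in P2ry14-null and 99.7 to 115 CPM in WT libraries. The 8 were Mcpt8, Cpa3, Fcer1a, Mcpt4, Tpsb2, Tpsab1, Ms4a2 and Cma1. This sum thus came mainly from Kit, Hdc and Gata2, and the content of mast cells or basophils was not tested. Neutrophil markers ran from 3697 to 5397 CPM, with Elane at 0 reads in all libraries.

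None of the 9 genes passed the threshold between genotypes, and the order of their levels was the same in both. All 9 passed the filter on low counts. The edgeR quasi-likelihood test called 0 of 9 at an adjusted p under 0.05, beside 0.0385% of all 15586 tested genes (0.0128% higher and 0.0257% lower in P2ry14-null), and DESeq2, which gave no p for Enpp1, called 0 of the other 8, beside 0.118% of the genes it tested. The adjusted p was 0.999 in edgeR for each of the 9. At an unadjusted p under 0.05, edgeR gave 1 of 9, Adora2a, beside 4.13% of all tested genes, and DESeq2 gave the same 1, beside 2.89%. The log2 fold change, P2ry14-null minus WT, lay below 0 for 7 of 9, beside 48.8% of all tested genes. The median over the 9 was -0.04 and over all tested genes 0.00. For each of the 9 the ranges of the groups overlapped, which held for all but 0.648% of tested genes.

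**Figure D1:**
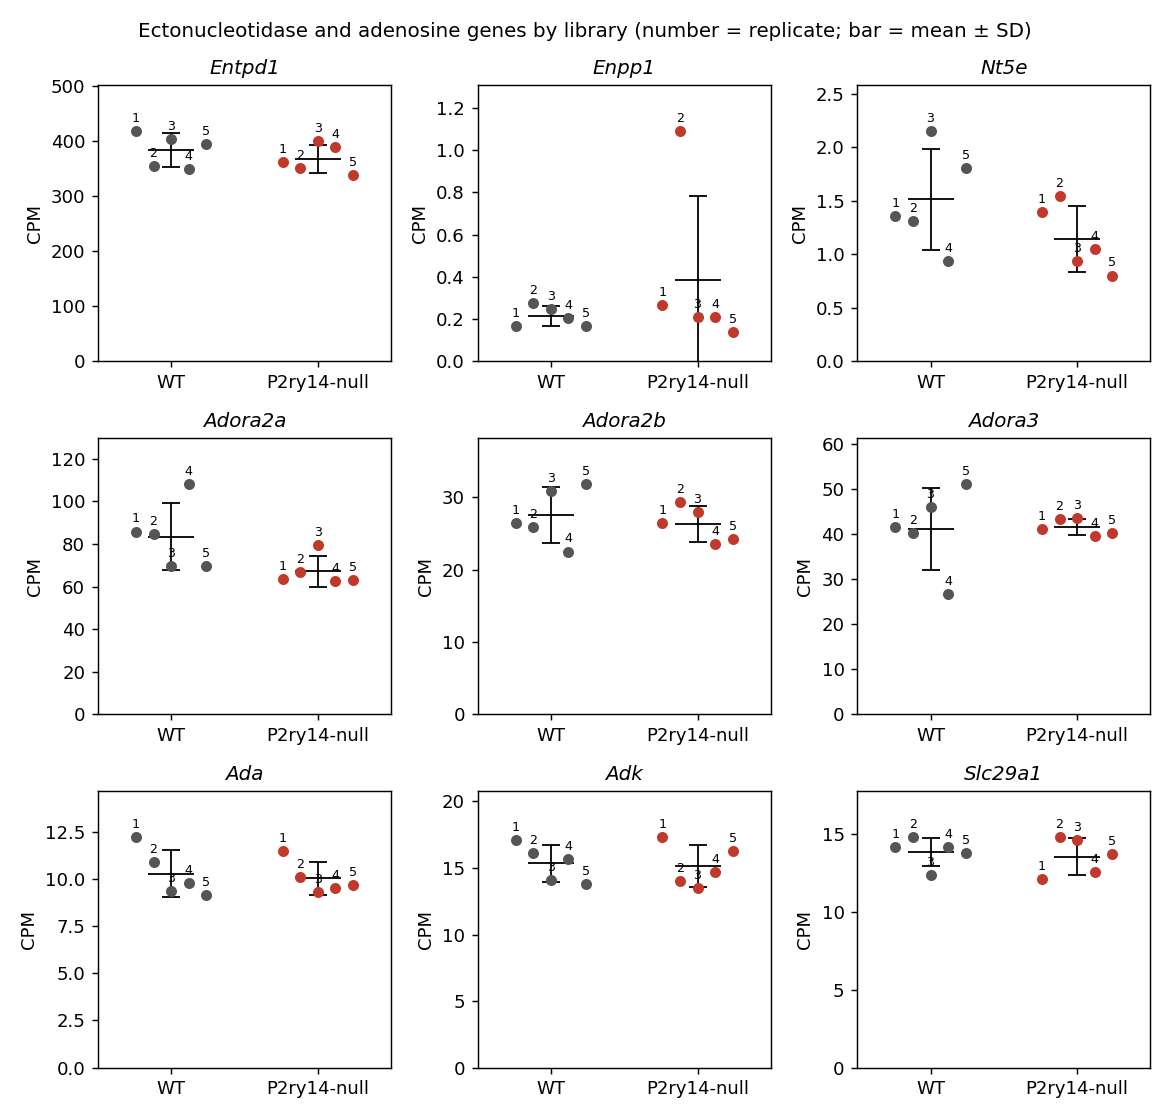
CPM of the 9 genes (vertical axes, each from 0) in each WT and P2ry14-null library, numbered by replicate, with the group mean and SD as a cross bar and whiskers (the lower whisker of Enpp1 in P2ry14-null runs below 0 and is cut by the axis). The groups overlap for every gene, and single libraries stand off for Enpp1 (P2ry14-null 2, 1.09 CPM) and Adora2a (P2ry14-null 3, 79.4 CPM). For Adora3 the WT libraries spread from 26.7 CPM (WT 4) to 51.0 CPM (WT 5).

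**Figure D2:**
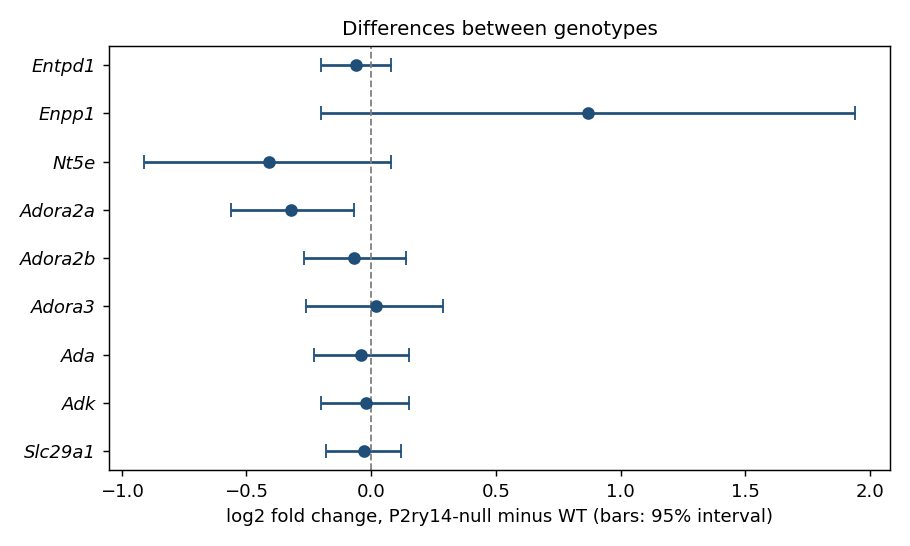
Log2 fold change of each gene, P2ry14-null minus WT (horizontal axis), with its 95% interval from the edgeR fit as a bar. Of the 9 intervals, that of Adora2a, from -0.56 to -0.07, leaves out 0 before adjustment for the number of genes, and those of Enpp1 and Nt5e are the widest.

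Levels between genes were compared per kilobase of exon (reads per kilobase of exon per 1e+06 reads), over all 10 libraries. Entpd1 led with 67.5 ± 5.01 (SD, n = 10), rank 664 of 14192 tested genes with an exon length. The receptors followed, Adora2a at 24.6 ± 4.74, Adora2b at 14.6 ± 1.67 and Adora3 at 11.1 ± 1.66 per kilobase. Receptor transcripts thus stood above those of the intracellular enzymes and the transporter. Ada had 5.07 ± 0.512, Slc29a1 3.42 ± 0.254 and Adk 1.79 ± 0.166 per kilobase. The last 2 were Nt5e with 0.154 ± 0.0490 per kilobase at rank 11920, and Enpp1 with 0.0291 ± 0.0274 at rank 13666. In each of the 10 libraries every gene stood above the next in this order. The ranges over libraries overlapped for 2 pairs of neighbours, Adora2b with Adora3 and Nt5e with Enpp1, and the other neighbours were separate.

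**Figure D3:**
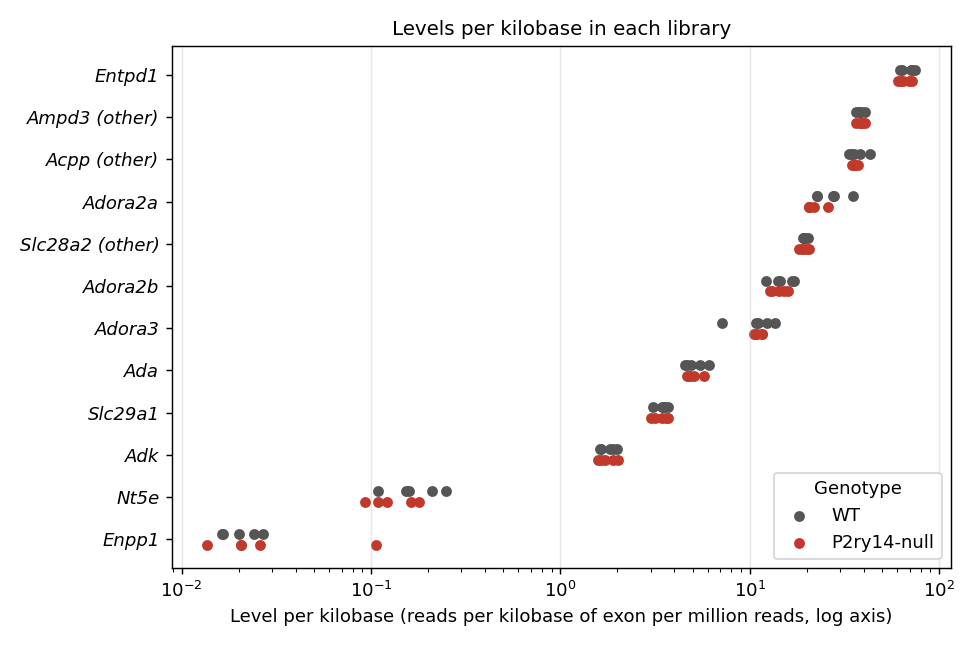
Level per kilobase (reads per kilobase of exon per 1e+06 reads, log axis) of the 9 genes and of Ampd3, Acpp and Slc28a2 (marked other) in each library, WT in grey and P2ry14-null in red. Entpd1 stands highest at 60.7 to 75.1 and Nt5e and Enpp1 stand below 0.25 in every library, with both genotypes side by side.

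The first enzyme of the surface cascade was abundant. Entpd1 (gene ID 12495; mm10 chromosome 19, 40612366 to 40741602, plus strand) had 363, 352, 400, 389 and 339 CPM in P2ry14-null libraries 1 to 5. WT libraries 1 to 5 had 419, 355, 405, 350 and 396 CPM. Values of both groups lay interleaved. The SD of log2 CPM was 0.12 in WT and 0.10 in P2ry14-null, the 52.4th and the 75.4th percentile of genes with a mean of at least 5 CPM. Its log2 fold change was -0.06 ± 0.06 (SE), with a 95% interval from -0.20 to 0.08 (edgeR adjusted p = 0.999). In percent, that interval runs from 13.1% lower, written as -13.1%, to 5.56% higher in P2ry14-null.

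Nt5e, which encodes the enzyme that completes the path to adenosine, was near the low end of what was measured (gene ID 23959; chromosome 9, 88327609 to 88372089, plus strand). It rested on 94 to 389 reads per library. P2ry14-null libraries 1 to 5 had 1.39, 1.54, 0.937, 1.05 and 0.801 CPM. WT libraries 1 to 5 had 1.36, 1.31, 2.15, 0.934 and 1.80 CPM. The 2 highest libraries, WT 3 and WT 5, were WT, and the lowest was P2ry14-null 5, but WT 1, WT 2 and WT 4 lay among the P2ry14-null values. For Nt5e the log2 fold change was -0.41 ± 0.23 (SE; 95% interval -0.91 to 0.08; edgeR unadjusted p = 0.0961, adjusted p = 0.999). It ranged from -0.56 to -0.25 with single libraries left out, and stood at -0.56 without P2ry14-null library 2 (edgeR unadjusted p = 0.0291, adjusted p = 1.00) and at -0.54 without WT library 4 (edgeR unadjusted p = 0.0242, adjusted p = 0.983). Without both, a choice made after seeing the data, it was -0.69 ± 0.19 (SE; edgeR unadjusted p = 0.00405, adjusted p = 0.806).

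Enpp1 (gene ID 18605; chromosome 10, 24637914 to 24712159, minus strand) was lower still, with 18 to 168 reads per library. P2ry14-null libraries 1 to 5 had 0.267, 1.09, 0.211, 0.210 and 0.141 CPM. WT libraries 1 to 5 had 0.168, 0.276, 0.248, 0.205 and 0.169 CPM. With all libraries, its log2 fold change was 0.87 ± 0.50 (SE; 95% interval -0.20 to 1.94; edgeR adjusted p = 0.999), and without P2ry14-null library 2 it was -0.09 ± 0.24. In that library markers of macrophages, MHC class II cells, lung epithelium and lymphocytes were high. There the macrophage genes Chil3 and Mrc1 had 1520 and 32.5 CPM, against 235 to 363 and 5.31 to 7.86 CPM in the other P2ry14-null libraries. The part of other cells in the Enpp1 value of that library was not tested. In bulk libraries, fewer cells of a type and less RNA per cell cannot be told apart.

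Between both ends of the surface cascade the levels were far apart. Per kilobase, Entpd1 stood 527-fold above Nt5e in P2ry14-null libraries (353 to 658) and 420-fold in WT (291 to 578). A further gene of the list for extracellular nucleotide hydrolysis filled part of that span. Acpp, prostatic acid phosphatase, whose membrane form also turns AMP into adenosine, had 36.4 ± 2.72 per kilobase over 10 libraries. This was 285-fold above Nt5e in P2ry14-null (194 to 376) and 231-fold in WT (153 to 397). Acpp did not pass the threshold between genotypes, with 262 ± 8.58 CPM in P2ry14-null and 271 ± 27.8 CPM in WT (log2 fold change -0.05 ± 0.06, SE, n = 5 each; edgeR adjusted p = 0.999). Enpp4, an ecto-hydrolase of the same family as Enpp1, had 1.65 ± 0.161 per kilobase, and Bst1, an ADP-ribosyl cyclase, 0.628 ± 0.258. Of the 13 genes in the list, 7 passed the low-count filter, 4 of them above 0 and 3 below 0 in log2 fold change, and 0 were called. The 6 others, Entpd2, Entpd3, Entpd8, Enpp2, Enpp3 and Alpl, had at most 19 reads in any library. Of the NTPDases of intracellular membranes, all 4 were measured, and Entpd6 led with 5.09 ± 0.288 per kilobase, followed by Entpd5 with 2.96 ± 0.236 and Entpd7 with 2.18 ± 0.158.

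Adora2a, the Gs-coupled receptor that restrains many leukocytes, was the most abundant adenosine receptor and the one with the lowest p among the 9 genes (gene ID 11540; chromosome 10, 75316862 to 75334792, plus strand). P2ry14-null libraries 1 to 5 had 63.3, 66.6, 79.4, 62.8 and 63.2 CPM. WT libraries 1 to 5 had 85.8, 84.4, 69.4, 108 and 69.4 CPM. Each P2ry14-null library lay below the WT mean, while P2ry14-null 3 stood above WT 3 and WT 5. The means were 67.1 ± 7.05 CPM in P2ry14-null and 83.5 ± 16.0 CPM in WT (SD, n = 5 each). This gave a log2 fold change of -0.32 ± 0.11 (SE; 95% interval -0.56 to -0.07; edgeR unadjusted p = 0.0156, adjusted p = 0.999). DESeq2 gave -0.32 with an unadjusted p of 0.00694 and an adjusted p of 0.786. At an unadjusted p under 0.05, 2.67% of all tested genes were lower in P2ry14-null, and Adora2a stood at rank 187 by p. Over 16 alternatives, the adjusted p of Adora2a ran from 0.442 to 1.00. The difference depended in size on WT library 4: it was -0.20 ± 0.09 without that library (edgeR unadjusted p = 0.0471, adjusted p = 0.983).

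Other measures were also lower in P2ry14-null libraries, and within groups they followed the Adora2a values in part. The mean log2 CPM of 5 heat shock genes (Hspa1a, Hspa1b, Dnajb1, Hsp90aa1 and Hspa8) was 3.92, 4.24, 5.06, 4.68 and 3.73 in P2ry14-null libraries 1 to 5. In WT libraries 1 to 5 it was 5.45, 5.02, 5.08, 5.45 and 5.01. P2ry14-null library 3, the highest of its group for Adora2a, was also the highest of its group for these genes, and WT libraries 1 and 4 were the highest for both in WT. Other libraries did not follow: P2ry14-null 4 was second in its group for heat shock genes and lowest for Adora2a, and WT 3 stood above WT 2 for heat shock genes and below it for Adora2a. The summed mast cell and basophil markers, mainly Kit, Hdc and Gata2, were lower in every P2ry14-null library than in every WT library, as given above. Of single tested genes, 0.648% had groups that did not overlap, but this share is not one for sums over a list. Of the 11 markers of this list, 8 were tested and 0 were called. Within P2ry14-null the summed markers were highest in library 4 (90.6 CPM), where Adora2a was lowest. The part of either in the Adora2a difference was not tested.

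Adora2b, the Gs-coupled receptor of lower affinity, gave no call (gene ID 11541; chromosome 11, 62248984 to 62266452, plus strand). P2ry14-null libraries 1 to 5 had 26.4, 29.4, 28.0, 23.6 and 24.2 CPM. WT libraries 1 to 5 had 26.5, 25.9, 30.9, 22.5 and 31.8 CPM. The P2ry14-null values all lay inside the WT range. Between genotypes the log2 fold change was -0.07 ± 0.09 (SE; 95% interval -0.27 to 0.14; edgeR adjusted p = 0.999).

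Adora3, the Gi-coupled receptor known for mast cell and eosinophil responses, had equal means and unequal spread (gene ID 11542; chromosome 3, 105904421 to 105908928, plus strand). P2ry14-null libraries 1 to 5 had 41.1, 43.3, 43.6, 39.6 and 40.1 CPM. WT libraries 1 to 5 had 41.5, 40.2, 46.0, 26.7 and 51.0 CPM. The P2ry14-null libraries lay close together, and WT held both the lowest value, WT 4, and the highest, WT 5. The log2 fold change was 0.02 ± 0.13 (SE; 95% interval -0.26 to 0.29; edgeR adjusted p = 0.999), and it was -0.10 ± 0.07 without WT library 4. The SD of log2 CPM was 0.35 in WT and 0.06 in P2ry14-null, which is the 98.4th and the 42.4th percentile of 8824 genes with a mean of at least 5 CPM. The medians over those genes were 0.11 in WT and 0.07 in P2ry14-null, and no test of the difference in spread was made. Adora3 lies within the span of Tmigd3 (105870858 to 105924044) on the same strand, and 779 of its 3729 exon bases (20.9%) are shared with Tmigd3. Reads in these bases could be given to either gene or to none, depending on a setting of the counting that the sources used here do not give. Tmigd3 had 40.3 ± 3.79 CPM in P2ry14-null and 38.9 ± 2.94 CPM in WT (SD, n = 5 each), and 36.8 CPM in WT library 4. Its SD was below that of Adora3 in WT (9.07 CPM) and above it in P2ry14-null (1.84 CPM).

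Adora1, the other Gi-coupled receptor, was close to absent. It had 6 reads over all 10 libraries and at most 3 in one, so at these depths it did not pass the low-count filter. Of the summed level per kilobase of the receptors, Adora2a made up 46.3% ± 1.92 in P2ry14-null and 51.1% ± 8.90 in WT (SD, n = 5 each). Adora2b made up 30.1% ± 1.52 and 28.1% ± 4.22, and Adora3 23.6% ± 0.842 and 20.8% ± 4.77. All these shares depend on how reads in the bases that Adora3 shares with Tmigd3 were counted. The P2ry14-null libraries had like shares, and the WT libraries varied more. Adora2b made up 26.8%, 26.8%, 32.3%, 22.3% and 32.2% in WT libraries 1 to 5. In WT library 4 the share of Adora2a was 64.6% and that of Adora3 13.1%, where the other WT libraries had 42.3% to 52.6% and 20.6% to 25.5%. Adora2a stood 1.96-fold above Adora3 in P2ry14-null (1.87 to 2.22) and 2.70-fold in WT (1.66 to 4.93).

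In WT libraries 3, 4 and 5, Adora2a deviated from its group mean in one direction and Adora2b, Adora3 and Nt5e in the other. In WT library 4, log2 CPM stood 0.40 above the WT mean for Adora2a and -0.28, -0.59 and -0.63 from it for Adora2b, Adora3 and Nt5e. In WT libraries 3 and 5 the signs were opposite: both stood at -0.25 for Adora2a, at 0.18 and 0.22 for Adora2b, at 0.20 and 0.34 for Adora3 and at 0.56 and 0.30 for Nt5e. In P2ry14-null the receptors shared a sign in library 3 (0.25 for Adora2a, 0.09 for Adora2b and 0.07 for Adora3), in library 4 (-0.09, -0.15 and -0.07) and in library 5 (-0.08, -0.11 and -0.05). In P2ry14-null libraries 1 and 2, Adora2a stood at -0.08 and 0.00, Adora2b at 0.01 and 0.17, and Adora3 at -0.01 and 0.06. Nt5e stood at 0.32, 0.46, -0.24, -0.08 and -0.46 in P2ry14-null libraries 1 to 5. Its sign was opposite to that of Adora2a in libraries 1 and 3. Over all 10 libraries with group means removed, Adora2b and Adora3 had a Pearson r of 0.87 (Spearman rho 0.95), and 0.85 without WT library 4. Nt5e and Adora2b had an r of 0.82 (rho 0.71), and 0.73 without WT library 4. Adora2a and Adora3 had an r of -0.77 (rho -0.35), which was -0.47 without WT library 4 and so rests in part on that library. These are descriptions from 36 pairs of genes over the same libraries, which share depth and handling, and are given without p. In WT library 4 the summed eosinophil markers, 14059 CPM, lay within the range of the other libraries, and the macrophage markers, 1947 CPM, within that of the other WT libraries. Other lists were highest of WT in that library: 115 CPM of mast cell and basophil markers against 99.7 to 107, 34.3 CPM of B cell and plasma cell markers against 20.2 to 30.8, and 8.04 CPM of natural killer and innate lymphoid markers against 5.95 to 7.35. The heat shock gene Hspa1a had 4.10 CPM there against 1.18 to 1.83 CPM in the other WT libraries. Dnajb1, with 58.7 CPM, lay within the 56.3 to 73.4 CPM of the other WT libraries. The mean log2 CPM of the 5 heat shock genes was 5.45 in both WT library 4 and WT library 1. The part of these in the receptor values of WT library 4 was not tested.

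**Figure D4:**
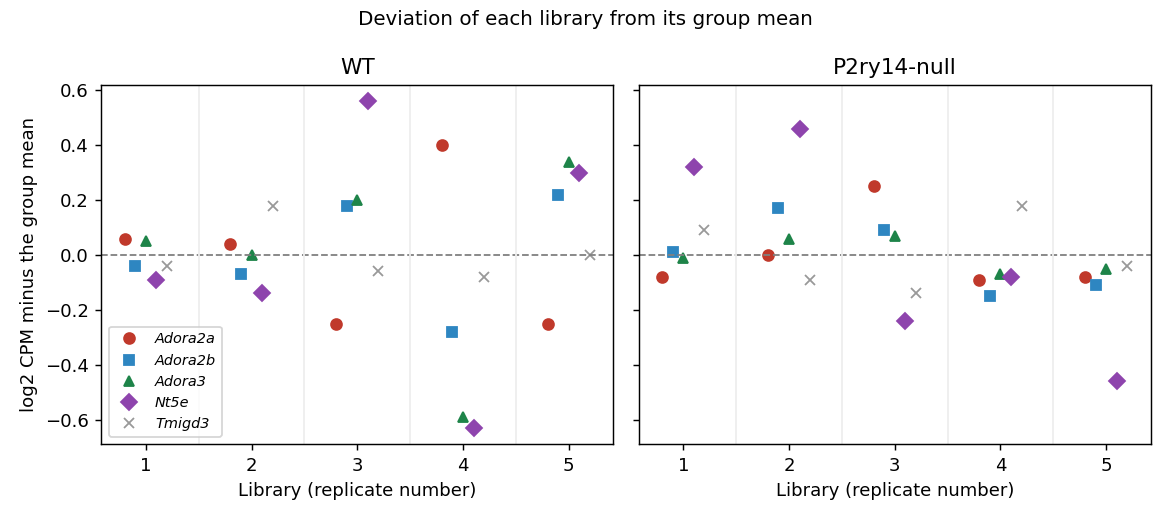
Log2 CPM of Adora2a, Adora2b, Adora3, Nt5e and Tmigd3 minus the mean of their group (vertical axis) in each WT library (left) and P2ry14-null library (right). In WT 4, Adora2a stands at 0.40 and Adora3 and Nt5e at -0.59 and -0.63, and in WT 3 and WT 5 the order is turned, while Tmigd3 stays between -0.14 and 0.18 in all 10 libraries.

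Because Adora2b and Adora3 varied together between libraries, the stretches before their start sites are shown. Each is the 250 bases upstream of the RefSeq start on GRCm38.p6, the assembly behind mm10, 5′ to 3′ on the gene's strand, and capitals mark matches to a motif on either strand. Windows were found for 8 of the 9 genes. The motifs searched were TGACG (a partial element for cyclic AMP response factors), GATAA (the core bound by GATA factors) and GGGCGG (a GC box). They occur in 17.8%, 22.6% and 32.7% of 32851 such windows of all genes, none of the 3 contains another, and matches that overlap were each counted.
Adora2b, chr11:62248734-62248983, plus strand: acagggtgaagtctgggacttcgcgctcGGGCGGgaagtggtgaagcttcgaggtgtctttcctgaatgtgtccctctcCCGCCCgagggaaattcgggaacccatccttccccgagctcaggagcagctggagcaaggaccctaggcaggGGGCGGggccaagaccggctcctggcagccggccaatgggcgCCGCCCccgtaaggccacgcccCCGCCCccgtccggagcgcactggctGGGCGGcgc
Adora3, chr3:105904171-105904420, plus strand: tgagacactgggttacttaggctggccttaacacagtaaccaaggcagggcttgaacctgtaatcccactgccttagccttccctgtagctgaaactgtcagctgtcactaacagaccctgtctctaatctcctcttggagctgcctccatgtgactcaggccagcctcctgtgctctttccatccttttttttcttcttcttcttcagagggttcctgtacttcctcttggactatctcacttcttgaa
The 2 windows had little in common in composition. That of Adora2b was 69.6% GC with 22 CpG and 6 GC boxes, and that of Adora3 was 48.8% GC with 0 CpG and 0 matches to any of the 3 motifs, where the medians over all windows were 52.4% GC and 6 CpG. A match is a run of letters and not a site of binding.

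The genes of the enzymes that clear adenosine gave no call between genotypes. Ada (gene ID 11486; chromosome 2, 163726571 to 163750239, minus strand) ranged from 9.32 to 11.5 CPM in P2ry14-null and from 9.17 to 12.2 CPM in WT, with a log2 fold change of -0.04 ± 0.09 (SE; 95% interval -0.23 to 0.15). Adk (gene ID 11534; chromosome 14, 21052574 to 21448569, plus strand) ranged from 13.5 to 17.3 CPM and from 13.8 to 17.1 CPM, with -0.02 ± 0.08 (95% interval -0.20 to 0.15). Both had an edgeR adjusted p of 0.999. Library 1 of each genotype was the highest of its group for both genes: 11.5 and 12.2 CPM for Ada, and 17.3 and 17.1 CPM for Adk. Over 10 libraries with group means removed their r was 0.80 (rho 0.85), and 0.83 without WT library 4. Per kilobase, Adk stood at 0.355 of Ada in P2ry14-null and 0.352 in WT.

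Nt5e and Adora2b had a higher r than Ada and Adk, 0.82 against 0.80. The Nt5e window, with 72% GC and 4 GC boxes, is not shown. For Ada and Adk, which also varied together, the upstream windows are given in the same way, for the Ada start and for the first of 2 starts of Adk.
Ada, chr2:163750240-163750489, minus strand: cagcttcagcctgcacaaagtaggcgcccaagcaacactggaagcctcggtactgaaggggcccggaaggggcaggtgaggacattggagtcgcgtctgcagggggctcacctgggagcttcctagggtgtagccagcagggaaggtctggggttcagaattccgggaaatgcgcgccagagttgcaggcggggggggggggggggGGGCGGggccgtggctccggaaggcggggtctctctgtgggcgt
Adk, chr14:21052324-21052573, plus strand: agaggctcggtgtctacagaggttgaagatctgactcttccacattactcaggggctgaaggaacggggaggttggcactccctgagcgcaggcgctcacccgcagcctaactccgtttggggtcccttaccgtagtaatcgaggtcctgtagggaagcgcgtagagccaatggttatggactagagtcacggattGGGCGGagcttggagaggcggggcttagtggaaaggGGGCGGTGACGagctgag
Both held GC boxes, 1 before Ada and 2 before Adk, and the Adk window also held 1 TGACG. The Ada window was 67.2% GC with 14 CpG and the Adk window 58.8% GC with 15 CpG.

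AMP has other routes within the cell, and genes of these routes stood both above and below Adk. Ampd3, an AMP deaminase that turns AMP into IMP, had 38.6 ± 1.46 per kilobase, 22.0-fold above Adk in P2ry14-null (19.1 to 24.9) and 21.6-fold in WT (18.3 to 24.7). Of the other AMP deaminase genes, Ampd2 had 20.9 ± 0.647 per kilobase and Ampd1 was far lower, with 0.0168 ± 0.00643. The cytosolic nucleotidase genes Nt5c1a and Nt5c1b had 1 and 9 reads over all 10 libraries. Other nucleotidase genes were higher: Nt5c3, Nt5c, Nt5c2 and Nt5c3b had 19.2, 17.0, 4.26 and 2.77 per kilobase. The purine salvage genes Aprt and Hprt had 71.9 ± 4.67 and 41.3 ± 2.63 per kilobase. Of 22 genes for adenosine and inosine enzymes, 19 were tested, 10 above 0 and 9 below 0, with a median log2 fold change of 0.01 and 0 called. The 2 with the lowest p outside Ada and Adk were Adal, a deaminase related to Ada (0.16 ± 0.08; edgeR unadjusted p = 0.0752), and Pnp, the phosphorylase that splits inosine (-0.11 ± 0.06; edgeR unadjusted p = 0.101). Ampd3 was at 0.01 ± 0.05, with 218 ± 8.39 CPM in P2ry14-null and 217 ± 8.93 CPM in WT (SD, n = 5 each).

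Slc29a1, the equilibrative transporter that carries adenosine across the plasma membrane, gave no call (gene ID 63959; chromosome 17, 45585200 to 45599603, minus strand). It ranged from 12.1 to 14.8 CPM in P2ry14-null and from 12.4 to 14.8 CPM in WT, with a log2 fold change of -0.03 ± 0.07 (SE; 95% interval -0.18 to 0.12; edgeR adjusted p = 0.999). Of its 4008 exon bases, 275 (6.86%) are shared with the antisense gene Gm17080. Since the sources used here do not give the strand setting of the counting, reads of either gene in these bases cannot be told apart. It was not the transporter gene with the highest level. Slc28a2, a sodium-driven concentrative transporter of purine nucleosides, had 19.5 ± 0.712 per kilobase, 5.80-fold above Slc29a1 in P2ry14-null (4.92 to 6.64) and 5.69-fold in WT (5.17 to 6.35). Slc28a2 had 81.9 ± 3.97 CPM in P2ry14-null and 82.5 ± 2.05 CPM in WT (SD, n = 5 each; log2 fold change -0.01 ± 0.04, SE). Of 7 transporter genes, 4 were tested and 0 called. Slc29a3, a lysosomal transporter, stood at 0.14 ± 0.08 (edgeR unadjusted p = 0.0941) and Slc29a2 at -0.31 ± 0.18 (edgeR unadjusted p = 0.113). The other 3, Slc29a4, Slc28a1 and Slc28a3, had at most 10 reads in any library.

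In the wider pathway of 93 genes, which holds the 9, 71 passed the low-count filter, 0 were called by edgeR and 0 by DESeq2. Outside the 9 genes, 62 were tested, 36 above 0 and 26 below 0, with a median log2 fold change of 0.02. At an unadjusted p under 0.05 there were 2 of these 62, 1 lower and 1 higher in P2ry14-null, beside 2.67% and 1.46% of all tested genes. Both belong to the signalling below the receptors, whose list gave 28 of the 62 tested genes. Crem, a cyclic AMP responsive transcription factor, had 21.4 ± 3.33 CPM in P2ry14-null and 25.8 ± 3.12 CPM in WT (SD, n = 5 each; log2 fold change -0.27 ± 0.11, SE; edgeR unadjusted p = 0.0268, adjusted p = 0.999). Its P2ry14-null libraries 1 to 5 had 22.0, 17.2, 23.7, 25.3 and 18.9 CPM, and its WT libraries 1 to 5 had 27.4, 24.2, 25.7, 30.0 and 21.8 CPM, so the groups overlapped. Adcy6, an adenylyl cyclase, was at 0.70 ± 0.29 (SE; edgeR unadjusted p = 0.0310, adjusted p = 0.999) on 11 to 64 reads per library, and its highest value, 0.415 CPM, was again that of P2ry14-null library 2. The cyclic AMP genes with the highest levels per kilobase were Gnai2, a Gi subunit, with 292 ± 9.01, the phosphodiesterase Pde4b with 80.9 ± 12.1 and Prkar1a, a regulatory subunit of protein kinase A, with 72.4 ± 3.80. Their log2 fold changes were -0.02 ± 0.04, -0.07 ± 0.12 and -0.06 ± 0.05.

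Of 8 genes for the release or export of ATP and pyrophosphate, 6 were tested and 0 called. Calhm2, a channel subunit, had 4.52 ± 0.220 per kilobase, Lrrc8a, of the volume-regulated anion channel, 2.87 ± 0.210, and Slc17a9, the vesicular nucleotide transporter, 1.11 ± 0.110. Panx1, the pannexin channel through which dying leukocytes release ATP, had 4.82 ± 0.205 CPM in P2ry14-null and 4.68 ± 0.174 CPM in WT (SD, n = 5 each; log2 fold change 0.04 ± 0.06, SE). Ank, a pyrophosphate exporter, had 1.60 ± 0.559 and 1.30 ± 0.101 CPM (0.31 ± 0.19, SE; edgeR unadjusted p = 0.126).

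The genes whose values over the 10 libraries were most like each of the 9 were ranked by Pearson r of log2 CPM with group means removed. Among up to 8495 genes with a mean of at least 5 CPM, Adora2a was most like Nol10 (r 0.95, rho 0.85), Gch1 (r 0.94, rho 0.90) and Hspa2 (r 0.94, rho 0.79). Without the 2 libraries farthest in Adora2a, WT 4 and P2ry14-null 3, the r with Nol10 was 0.78. Adora2b was most like B3gnt7 (r 0.97, rho 0.98), Khsrp and Papd7 (both r 0.94), and Adora3 was most like Ccnj (r 0.97, rho 0.70), Vamp1 and Tmem185b (both r 0.96). For Ccnj and Adora3 the r was 0.79 without WT libraries 4 and 5. Nt5e was most like Oxct1 (r 0.94, rho 0.94), Eif4b (r 0.92) and AW209491 (r 0.91). Entpd1 was most like Stim2 (r 0.96), Tial1 and Cop1 (both r 0.95), Ada was most like Mrpl13 (r 0.99), Reep5 (r 0.97) and Adh5 (r 0.96), Adk was most like Prune1 (r 0.97), Acbd4 (r 0.96) and Ogg1 (r 0.95), and Slc29a1 was most like Tysnd1 (r 0.94), Ptdss2 (r 0.93) and Wdr55 (r 0.92). Enpp1, with a mean under 1 CPM, was not searched. These were the highest of many r over few libraries and are given without p.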

How the data were processed

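The data were deposited by the authors as 1 table of whole-number read counts per gene for 10 libraries of sorted lung eosinophils. The submitters' processing notes name the mm10 build and, as tools, DESeq2, STAR 2.5 and featureCounts 1.5.0-p1 of Subread. The sources used here do not give the annotation, the strand setting or the handling of reads with several matches. Groups and replicate numbers came from the sample titles, which equal the column names. Whether libraries are from separate mice is not in the labels, so p-values measure only the spread among these samples, and this spread may be technical. Chi-square tests gave at least 23.2 per gene for each pair of libraries within a group, so each was counted once.

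The deposited counts were fitted with edgeR 4.0.16 (R 4.3.3), using TMM factors, the default filter on low counts and a model of genotype, and the quasi-likelihood p was adjusted by Benjamini-Hochberg over 15586 genes with a threshold of 0.05. The script was tested on simulated data. SE is the log2 fold change over the square root of F, and intervals cover 95%. CPM used TMM-scaled library sizes, and levels per kilobase used union exon lengths from GENCODE vM21, matched for 27699 of 35725 rows. log2 CPM for correlations, deviations and spread used a prior count of 2. Sequences were copied from RefSeq on GRCm38.p6. Alternatives were DESeq2 1.42.0, RLE factors, other filters, the replicate number as a block, TPM, Spearman correlation, each library left out, and 2 libraries left out together, the last chosen after seeing the data. Named genes were the 9, P2ry14, the 2 of lowest p and the 3 of highest level per kilobase in each pathway list outside the 9, and the 3 most like each gene. Tmigd3, Gm17080, the genes left out by the low-count filter, the 5 heat shock genes and single markers were named after their values were seen. So were Ampd2, Nt5c, Nt5c2, Nt5c3 and Nt5c3b. The 9 genes, the pathway lists and the marker lists were chosen with earlier results of these data known.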

Additional observations from a re-analysis of the deposited data

Results flagged for a closer look

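For 34 named genes, the libraries of each genotype were searched for one that stood far from the other 4 of its group (Dixon's test, critical value 0.71 at 5 libraries). Of 68 groups, 8 held such a library, and chance flags about 1 in 20 groups. In P2ry14-null library 2 this held for Enpp1 (1.09 CPM against 0.141 to 0.267), Bst1 (4.40 CPM against 1.51 to 1.74), Panx1 (5.18 CPM against 4.66 to 4.79) and Adcy6 (0.415 CPM against 0.156 to 0.210). This is the library with raised macrophage, MHC class II, lung epithelial and lymphocyte markers, and the part of those cells in these values was not tested. Adora2a stood apart in P2ry14-null library 3, with 79.4 CPM against 62.8 to 66.6. In WT library 1, Bst1 (2.32 CPM, with 1.93 CPM in the lowest library) and Pnp (33.8 CPM against 27.2 to 29.0) stood high and Ank (1.12 CPM against 1.31 to 1.38) stood low.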

How the results depend on the processing

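In none of the 16 alternatives to the edgeR test did one of the 9 genes, or of the wider list of 93, pass the adjusted threshold. Calls over all genes were 6 in the main test, 19 in DESeq2, 3 to 5 with single libraries left out, and 3 without both P2ry14-null library 2 and WT library 4. The number of the 9 at an unadjusted p under 0.05 was 1, and 1 to 2 with single libraries left out; the second gene was Nt5e without P2ry14-null library 2 or WT library 4, and Enpp1 without P2ry14-null library 5 (edgeR unadjusted p = 0.0404). Without both libraries just named the 1 was Nt5e, and Adora2a was at -0.19 (edgeR unadjusted p = 0.0751, adjusted p = 0.997). The log2 fold change of Enpp1, 0.87 with all libraries, ranged from -0.09 to 1.09 with single libraries left out and turned sign only without P2ry14-null library 2. Values near 0 also turned sign when single libraries were left out: Adora3 from -0.10 to 0.11, Ada from -0.09 to 0.03, Adk from -0.07 to 0.03 and Slc29a1 from -0.07 to 0.01. Without both libraries Enpp1 was at -0.10, Adora3 at -0.11 and Adk at 0.02. The fit with the replicate number as a block called 6 genes over all and 0 of the 9, and gave -0.30 for Adora2a and 0.49 for Enpp1. Same-numbered libraries had correlations of -0.0933 to 0.0940 over 5 pairs. Such a check cannot exclude a pairing that moves few genes, and the labels do not say what the numbers mark. Enpp1 had no value under the filter of a mean of 1 CPM and no p in DESeq2. TPM gave the same order of the 9 genes, and so did each omission of a library. Of the 24 genes most like one of the 9 by Pearson r, 5 were also among the 3 most like it by Spearman rho. The cause of these shifts was not tested. Reads limit Enpp1 and Nt5e most, with as few as 18 and 94 in a library.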
